A study of Mus musculus with 9 samples.

Results

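The genes described here are 10 genes of tumor necrosis factor (TNF) signalling, the death receptors and necroptosis in mouse cerebral cortex, chosen by symbol from the 52550 genes of the deposited tables. They are the ligand gene Tnf, the receptor genes Tnfrsf1a, Tnfrsf1b, Tnfrsf12a, Fas and Tnfrsf10b, the kinase genes Ripk1 and Ripk3, the effector gene Mlkl and the brake gene Tnfaip3. The question the design puts to them is whether their RNA differs after stroke, and whether it differs when an enhancer RNA, eRNA_06347, is knocked down before the stroke. Levels are in TPM (a transcript's share of the library per base of its length, scaled to a fixed total), so that levels of different genes may be compared. Of the 10 genes, 8 had 3 or more of the 9 libraries at a TPM of 1 or above, and were tested among the 17080 genes kept by that filter. Tnf and Tnfrsf10b reached it in MCAO libraries alone, and Ripk3 and Mlkl did not reach it and are given by their values.

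TNF is made as a membrane protein and shed as a soluble cytokine, in brain mainly by microglia and by myeloid cells that enter from the blood. Its receptors differ in what lies inside the cell: the products of Tnfrsf1a, Fas and Tnfrsf10b carry a death domain, whereas those of Tnfrsf1b and Tnfrsf12a bind TRAF adaptors directly. From the Tnfrsf1a receptor the kinase RIPK1 leads either to NF-kB and survival, or to caspase-8 and apoptosis, or, where caspase-8 is blocked, through RIPK3 to MLKL, which breaks the plasma membrane in necroptosis.

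All mice were male C57BL/6N, 9 to 12 weeks old, with 3 libraries per group. Mice of the control oligo group (replicates 1, 2 and 3) were given a negative control LNA (locked nucleic acid) antisense oligo into the lateral ventricles, and those of the knockdown group (replicates 2, 3 and 4) an LNA oligo against eRNA_06347. Both groups then underwent MCAO, in which a filament blocks the middle cerebral artery, for 1 h, with 6 h of reperfusion, and the infarcted cortex of the same side was taken. Sham mice (replicates 1, 2 and 3) had sham surgery, and no oligo is named for them. The sham libraries were taken from earlier work of the same laboratory, so stroke and data set cannot be told apart in any comparison with sham. The labels give 3 mice per group, and the eRNA itself is not analysed here. In bulk tissue, fewer cells of a type and less RNA per cell cannot be told apart.

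The sham libraries held 2.98 to 3.18 G aligned bases (G, giga) and the 6 MCAO libraries 4.92 to 5.52 G. In thinly covered single-exon transcripts the commonest number of aligned bases was 51 in each sham library and 282 in each MCAO library. The length aligned per read or read pair thus appears to differ with the data set. Transcript shares and numbers of aligned bases in sham are therefore not like for like with those of MCAO. Mitochondrial transcripts took 22.6 to 28.9% of the TPM of MCAO libraries but 0.277 to 0.577% of that of sham, and nuclear protein-coding genes took 54.7 to 63.9% and 30.6 to 34.2%. With these shares the median gene stood 0.56 (log2) higher in control oligo than in sham, 0.61 higher in knockdown against sham and 0.06 higher in knockdown against control oligo. Values after median-ratio scaling, which brings those medians to 0.01 in each comparison, are therefore given beside the values as deposited. Excitatory neuron markers, the defining genes of cortex, summed to 2304 to 3414 TPM in MCAO libraries and to 845 to 978 in sham. The sum was carried by abundant genes such as Nrgn and Camk2a: 5 of the 10 were called higher and 3 lower in control oligo against sham, and 4 and 4 after scaling, with a median log2 change of -0.06.

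Knockdown replicate 4 stood apart from the other 5 MCAO libraries. It was at least 2 times the highest of them for 598 of 17080 genes (3.50%), against 18 to 50 genes for each other MCAO library. Of the 10 genes, Tnf, Tnfrsf1b, Tnfaip3, Ripk3 and Mlkl were 2.37 to 7.42 times the highest other MCAO library there. Neutrophil markers (12 genes) summed to 1434 TPM in this library, to 32.2 to 345 in the other MCAO libraries and to 2.59 to 7.99 in sham. Monocyte and macrophage markers (10 genes) summed to 777, to 43.6 to 176 and to 18.1 to 39.2. Values without this library are given beside those that it moves most.

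**Figure D1:**
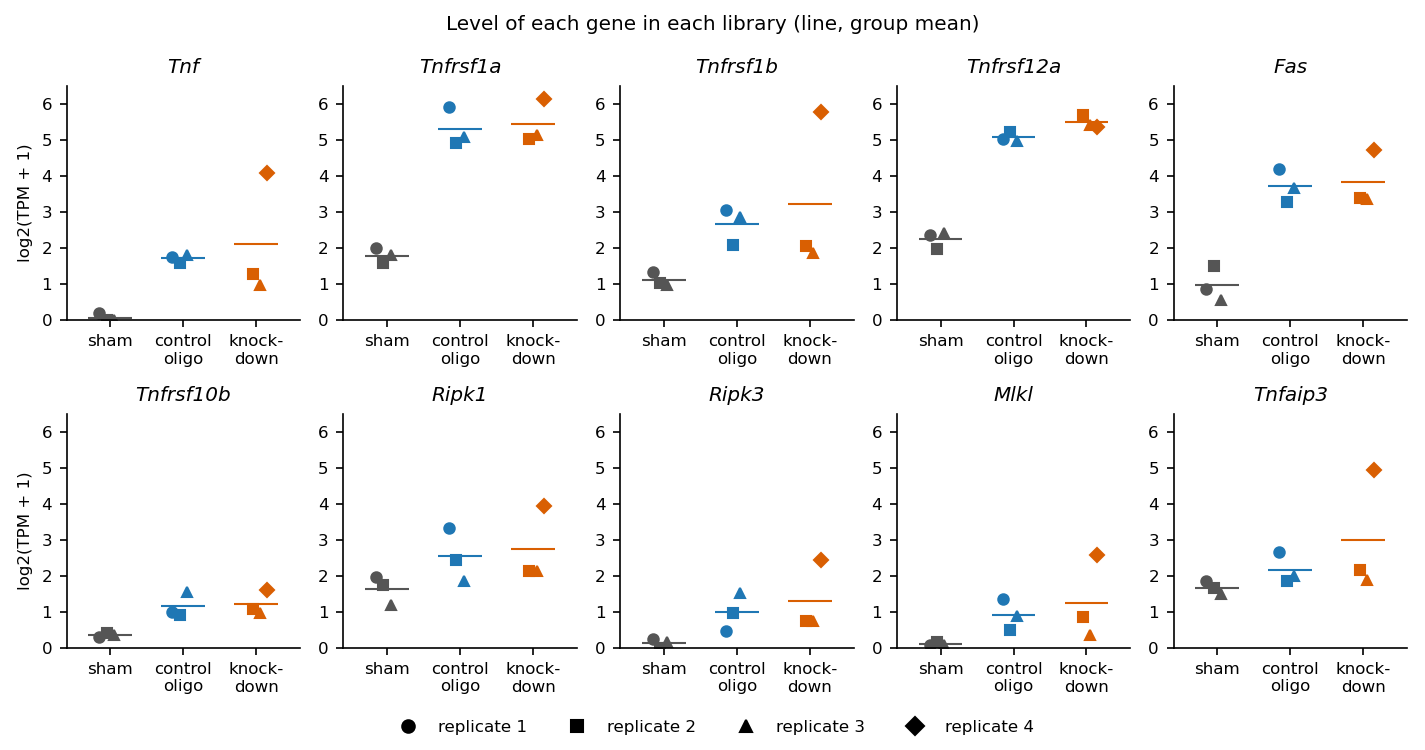
Level of each of the 10 genes in each of the 9 libraries, as log2(TPM + 1) on the vertical axis, by group on the horizontal axis, with the shape of a point for the replicate number and a line at the group mean. Knockdown replicate 4 is the highest point of every gene but Tnfrsf12a, whose 3 knockdown libraries all lie above the 3 control oligo libraries.

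Sequences of the start regions are shown for Tnf and Tnfaip3, which were among the genes highest in knockdown replicate 4, for Tnfrsf12a, which was not, and for Fas, which holds a motif. They are the 250 bases before the annotated start, 5′ to 3′ on the gene's strand, from RefSeq on GRCm38.p6, which had 9 of the 10 genes (Tnfrsf10b was not matched) with 11 start sites. Capitals mark matches, on either strand, to the NF-kB consensus, to AP-1 (TGANTCA), to the cyclic AMP response element (TGACGTCA) or to the TATA box (TATAAA), none of which overlap here. The region of Tnf is chr17:35202008-35202257 on the minus strand, that of Tnfrsf12a chr17:23677450-23677699 (minus), that of Fas chr19:34290409-34290658 (plus), and those of the Tnfaip3 starts chr10:19015411-19015660 and chr10:19011964-19012213 (minus).
Tnf: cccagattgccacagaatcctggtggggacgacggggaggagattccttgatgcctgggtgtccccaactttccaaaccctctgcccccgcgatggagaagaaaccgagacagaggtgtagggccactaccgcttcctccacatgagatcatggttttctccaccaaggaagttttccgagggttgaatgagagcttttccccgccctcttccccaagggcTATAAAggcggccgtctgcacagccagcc
Tnfrsf12a: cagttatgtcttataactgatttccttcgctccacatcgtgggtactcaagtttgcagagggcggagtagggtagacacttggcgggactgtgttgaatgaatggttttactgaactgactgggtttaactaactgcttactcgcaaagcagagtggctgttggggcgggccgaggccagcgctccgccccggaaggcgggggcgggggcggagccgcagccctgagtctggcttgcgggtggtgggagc
Fas: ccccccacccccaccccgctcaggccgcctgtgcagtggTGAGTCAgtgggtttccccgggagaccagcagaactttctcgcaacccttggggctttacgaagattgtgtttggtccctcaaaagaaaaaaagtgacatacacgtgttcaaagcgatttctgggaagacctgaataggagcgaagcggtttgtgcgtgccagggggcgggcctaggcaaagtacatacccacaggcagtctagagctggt
Tnfaip3, first start: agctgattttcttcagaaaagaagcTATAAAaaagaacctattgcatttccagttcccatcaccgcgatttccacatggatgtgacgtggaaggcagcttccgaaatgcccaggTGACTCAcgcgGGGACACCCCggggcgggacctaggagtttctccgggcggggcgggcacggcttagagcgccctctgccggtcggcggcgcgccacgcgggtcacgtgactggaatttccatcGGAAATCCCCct
Tnfaip3, second start: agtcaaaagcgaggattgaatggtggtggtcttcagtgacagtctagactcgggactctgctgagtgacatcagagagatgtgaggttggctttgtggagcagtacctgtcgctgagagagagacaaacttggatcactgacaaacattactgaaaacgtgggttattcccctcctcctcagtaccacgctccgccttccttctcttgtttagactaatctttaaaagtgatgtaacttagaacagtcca

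Of the 11 start regions, the first of Tnfaip3 alone matched the NF-kB consensus, at 125 to 116 bases (on both strands) and at 12 to 3 bases before the start, and 7.25% of 32851 RefSeq start regions of this length held such a match. It also matched AP-1 at 136 to 130 bases and the TATA box at 225 to 220 bases before the start. Fas matched AP-1 at 211 to 205 bases before the start, and 6.75% of start regions held AP-1. Tnf matched the TATA box at 29 to 24 bases before the start, a match that 12.4% of start regions held anywhere in the window. No member matched the cyclic AMP response element, which 1.55% of start regions held. These are matches of letters, not sites shown to be bound.

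In control oligo MCAO cortex, 6 of the 8 genes tested were called higher than in sham (limma adjusted p under 0.05) and none lower. They were the ligand gene Tnf and all 5 receptor genes, with log2 changes from 0.80 to 3.52. Tnf and Tnfrsf10b passed the filter through MCAO libraries alone. Their calls, and the separation of their groups from sham, were therefore largely set by the filter. A log2 change is a difference of mean log2(TPM + 1), a scale that understates the change of genes with low levels. Of all genes kept, 52.6% were called higher and 12.8% lower in the same fit. After median-ratio scaling 5 of the 8 were called higher, against 26.1% of all genes (29.2% were lower), and Tnfrsf10b missed the threshold. The median log2 change of the 8 genes was 1.60, beside 0.56 over all genes, and 1.31 beside 0.01 after scaling. Of the 8 genes, 7 had groups that did not overlap, with Ripk1 as the exception, as had 70.4% of the genes kept.

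**Figure D2:**
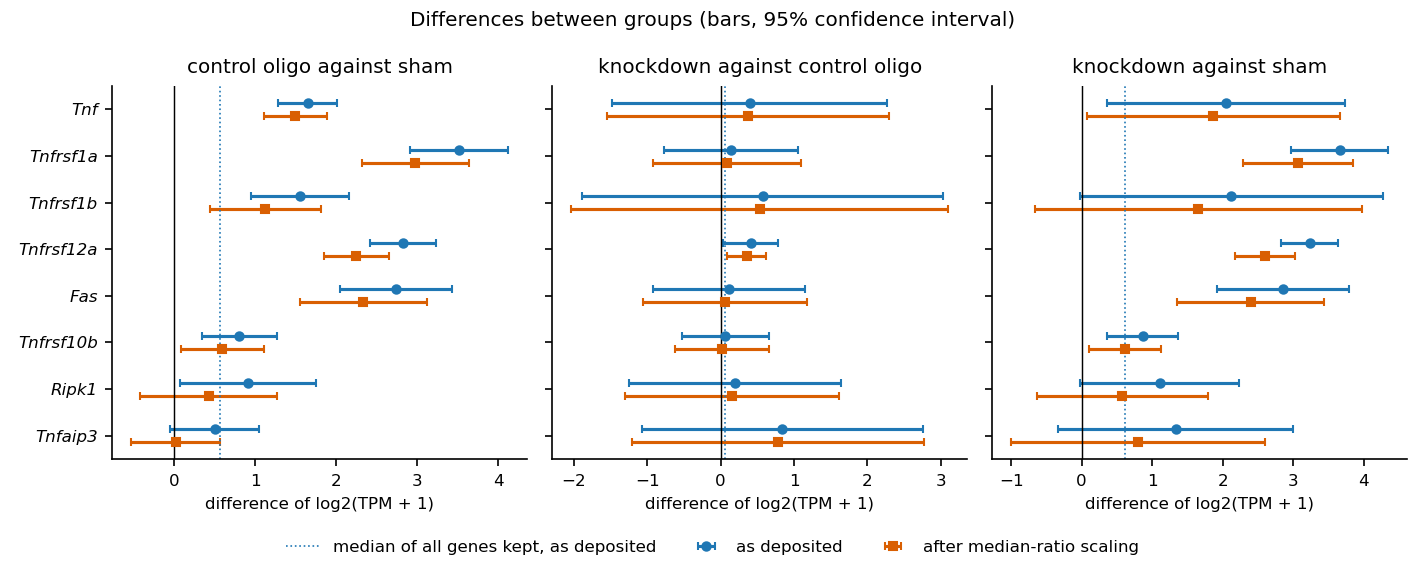
Difference of log2(TPM + 1) for the 8 genes tested in the 3 comparisons, as deposited (circles) and after median-ratio scaling (squares), with 95% confidence intervals from limma, and a dotted line at the median of all genes kept. The receptors Tnfrsf1a, Tnfrsf12a and Fas lie at 2.74 or more in control oligo against sham, while in knockdown against control oligo every interval but that of Tnfrsf12a holds 0.

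Tnf (ENSMUSG00000024401, chromosome 17, 35199381 to 35202007, minus strand, GRCm38), the ligand gene, was read in 1 of 3 sham libraries, at 0.132, 0 and 0 TPM. It stood at 2.37, 1.97 and 2.46 TPM in control oligo and at 1.42, 0.945 and 15.9 TPM in knockdown replicates 2, 3 and 4. All MCAO libraries lay above all sham libraries, and knockdown replicates 2 and 3 lay below every control oligo library while replicate 4 lay above them. The log2 change was 1.65 ± 0.16 (SE) in control oligo against sham, with an adjusted p of 6.7e-05 (1.49 scaled, 0.000295). It was 2.04 ± 0.73 in knockdown against sham, with an adjusted p of 0.0379, and 1.87 with an adjusted p of 0.0783 after scaling. The call was lost without any 1 of the sham libraries (adjusted p 0.0789, 0.0910 and 0.105 without replicates 1, 2 and 3). Without knockdown replicate 4 the change was 1.06 ± 0.17, with an adjusted p of 0.000958. The number of aligned bases behind these values was 508 in sham replicate 1, 8368 to 11409 in control oligo, and 5850, 4155 and 66141 in the knockdown libraries.

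Tnfrsf1a (ENSMUSG00000030341, chromosome 6, 125349362 to 125362484, plus strand), the gene of the broadly expressed death-domain receptor of TNF, had the largest log2 change of the 8 genes in both comparisons with sham at a pseudocount of 1. At a pseudocount of 0.1 that of Tnf was larger, at 4.15 against 3.93 in control oligo and 4.47 against 4.07 in knockdown. It stood at 2.95, 1.97 and 2.47 TPM in sham, at 59.0, 29.2 and 32.7 in control oligo and at 31.5, 34.4 and 69.8 in knockdown libraries. No MCAO library overlapped sham, and the control oligo and knockdown groups did overlap. Its mean was 40.3 ± 16.3 TPM (SD, n = 3) against 2.46 ± 0.492 in sham, 16.4 times higher, or 10.4 times after scaling. The log2 change was 3.52 ± 0.27 in control oligo and 3.66 ± 0.30 in knockdown against sham (adjusted p 1.93e-05 and 5.47e-05).

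The level of Tnfrsf1a in control oligo replicate 1 held 25.2 TPM from a 250-base transcript (ENSMUST00000131434, 125349362 to 125350035) that was at 0 to 0.288 TPM in every other library. The 2156-base transcript ENSMUST00000032491 stood at 32.7, 27.7 and 30.3 TPM in control oligo and at 30.3, 32.0 and 66.8 in knockdown libraries. Replicate 1 was thus like the other control oligo libraries for the long transcript. With transcripts under 300 bases left out, an alternative added after seeing the data, the log2 change was 3.17 in control oligo against sham and 0.40 instead of 0.14 in knockdown against control oligo, where it was not called either way.

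Tnfrsf1b (ENSMUSG00000028599, chromosome 4, 145213463 to 145246870, minus strand), the gene of the TRAF-binding TNF receptor that is most abundant on microglia, myeloid and endothelial cells, rose less. It stood at 1.50, 1.04 and 0.957 TPM in sham, at 7.22, 3.20 and 6.19 in control oligo and at 3.13, 2.63 and 53.6 in knockdown libraries. Knockdown replicates 2 and 3 lay below all control oligo libraries and replicate 4 was 7.42 times the highest of the other MCAO libraries. The log2 change in control oligo against sham was 1.55 ± 0.27 (adjusted p 0.00111, and 1.12 scaled with 0.0139). In a single fit over all 9 libraries, whose shared spread takes in knockdown replicate 4, this call was lost (adjusted p 0.127). In knockdown against sham the log2 change was 2.12 ± 0.93 and missed the threshold (adjusted p 0.0752), while without knockdown replicate 4 it was 0.85 ± 0.18 and passed it (adjusted p 0.00365). Without knockdown replicate 3 it was 2.80 and passed as well (adjusted p 0.0390).

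The ratio of these receptors within a library, which does not depend on how the library is scaled, was 1.97, 1.90 and 2.58 (Tnfrsf1a TPM over Tnfrsf1b TPM) in sham. It was 8.17, 9.13 and 5.28 in control oligo and 10.1, 13.1 and 1.30 in knockdown libraries. The control oligo libraries lay above every sham library, and knockdown replicate 4 lay below all other libraries. Without transcripts under 300 bases the ratio in control oligo replicate 1 was 4.68. The difference of the mean log2 ratio was 1.78 in control oligo against sham, with p = 0.1 in a two-sided exact permutation test, the smallest p that 3 against 3 libraries allow (0.3 after adjustment over 12 ratio tests), and 1.58 without transcripts under 300 bases. In knockdown against sham the difference was 1.38 (exact p = 0.4), and 2.43 without knockdown replicate 4.

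**Figure D3:**
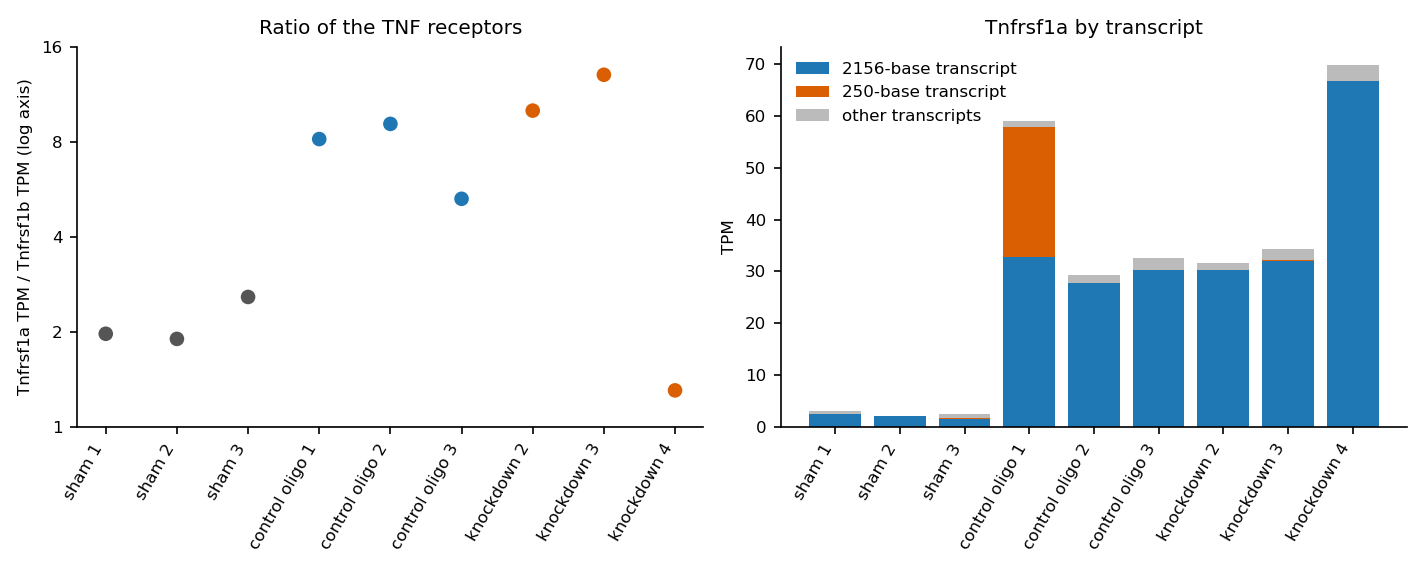
Left, the ratio of Tnfrsf1a TPM to Tnfrsf1b TPM in each library on a log axis, with the group and replicate on the horizontal axis. Right, Tnfrsf1a TPM in each library, stacked by transcript: the 250-base transcript adds 25.2 TPM in control oligo replicate 1, and knockdown replicate 4 is high in the 2156-base transcript at 66.8 TPM.

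Tnfrsf12a (ENSMUSG00000023905, chromosome 17, 23675447 to 23677449, minus strand), the gene of the receptor for the ligand TWEAK, varied least among the 10 genes within the control oligo group and within the knockdown group, by the ratio of the highest library to the lowest (1.20 and 1.26). It stood at 4.15, 2.92 and 4.37 TPM in sham, at 31.7, 36.5 and 30.3 in control oligo and at 50.4, 41.9 and 39.99 in knockdown libraries. The 3 groups did not overlap, and the 3 knockdown libraries lay above the 3 control oligo libraries. The log2 change was 2.82 ± 0.18 in control oligo and 3.24 ± 0.18 in knockdown against sham (adjusted p 7.95e-06 and 9.02e-06, with 2.25 and 2.60 after scaling). Its start region, printed above, held none of the motifs searched.

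Fas (ENSMUSG00000024778, chromosome 19, 34290659 to 34327770, plus strand), the death receptor that recruits caspase-8, stood at 0.812, 1.80 and 0.469 TPM in sham, at 17.3, 8.68 and 11.6 in control oligo and at 9.52, 9.24 and 25.2 in knockdown libraries. Every MCAO library lay above every sham library, and the MCAO groups overlapped. The log2 change was 2.74 ± 0.30 in control oligo and 2.86 ± 0.40 in knockdown against sham (adjusted p 0.000123 and 0.000588, with 2.33 and 2.40 after scaling). A 555-base transcript, ENSMUST00000112472, held 9.16% of the TPM of Fas in the sham mean, 18.7% in that of control oligo and 18.2% in that of knockdown. The sham share rests on 0.0764, 0.206 and 0 TPM and is not like for like with those of MCAO.

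Tnfrsf10b (ENSMUSG00000022074, chromosome 14, 69767472 to 69784411, plus strand), the receptor of the apoptosis ligand TRAIL, was low in every library. It stood at 0.230, 0.315 and 0.274 TPM in sham, at 0.983, 0.872 and 1.93 in control oligo and at 1.11, 0.945 and 2.02 in knockdown libraries. MCAO and sham libraries did not overlap. The log2 change was 0.80 ± 0.20 in control oligo and 0.86 ± 0.22 in knockdown against sham (adjusted p 0.00799 and 0.00900). After median-ratio scaling it was 0.59 with an adjusted p of 0.0517 in the first comparison, just short of the threshold, and 0.61 with 0.0483 in the second.

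Ripk1 (ENSMUSG00000021408, chromosome 13, 34002363 to 34037147, plus strand), the kinase that binds the Tnfrsf1a receptor, was not called in any comparison. It stood at 2.89, 2.33 and 1.29 TPM in sham, at 9.10, 4.42 and 2.59 in control oligo and at 3.37, 3.39 and 14.4 in knockdown libraries. Control oligo replicate 3 lay within the sham range, and all knockdown libraries lay above it. The log2 change was 0.91 ± 0.37 in control oligo (adjusted p 0.0568) and 1.10 ± 0.49 in knockdown against sham (0.0769), and 0.42 and 0.58 after scaling. Without knockdown replicate 4 the second was 0.50 (adjusted p 0.0921). Without control oligo replicate 3 the first was 1.26 and passed (adjusted p 0.00987).

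Values of Ripk1 are uncertain, since the tables were made without a strand option and the gene overlaps others. It shares 432 bases with Serpinb6a on the opposite strand (14.8 to 53.7 TPM), and holds the processed pseudogenes Gm17083 and Gm17084. Gm17084, on the same strand, stood at 8.88 and 7.48 TPM in control oligo replicates 1 and 3 and at 6.25 in knockdown replicate 2, and at 0.127 to 0.431 in the other libraries. The part of this overlap in the level of Ripk1 was not tested. The split of Ripk1 among its transcripts was uneven too: the 3266-base ENSMUST00000021844 stood at 7.88 TPM in control oligo replicate 1 and 11.8 in knockdown replicate 4, and at 0.0337 to 2.05 in the other MCAO libraries. The 6472-base ENSMUST00000167374 stood at 0.733 to 3.16 TPM in the same 6 libraries.

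Ripk3 (ENSMUSG00000022221, chromosome 14, 55784996 to 55788857, minus strand), the kinase that passes the necroptosis signal on, stood at 0.173, 0 and 0.109 TPM in sham, at 0.382, 0.948 and 1.88 in control oligo and at 0.667, 0.668 and 4.45 in knockdown libraries. Mlkl (ENSMUSG00000012519, chromosome 8, 111311797 to 111338177, minus strand), the pore-forming end of the pathway, stood at 0.0408, 0.113 and 0.0507 TPM in sham, at 1.54, 0.392 and 0.834 in control oligo and at 0.799, 0.262 and 4.92 in knockdown libraries. Both genes were higher in every MCAO library than in any sham library, at a depth of at most 802 aligned bases per sham library for Ripk3 and 502 for Mlkl. In knockdown replicate 4 the level of Mlkl came mainly from ENSMUST00000120432 (4.75 TPM) and that of Ripk3 mainly from ENSMUST00000168716 (3.65 TPM). The Mlkl transcript stood at 0.859 and 0.742 TPM in control oligo replicates 1 and 3. It was listed at 0 in sham, in control oligo replicate 2 and in knockdown replicates 2 and 3. Without the filter on low values neither Ripk3 nor Mlkl was called by limma. In control oligo against sham the log2 change was 0.86 (adjusted p 0.154) for Ripk3 and 0.80 (0.115) for Mlkl. In knockdown against sham it was 1.18 (0.263) and 1.15 (0.352).

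Mlkl was higher relative to Ripk1 of the same library after MCAO. The ratio of Mlkl TPM to Ripk1 TPM was 0.0141, 0.0485 and 0.0393 in sham, 0.169, 0.0885 and 0.323 in control oligo and 0.237, 0.0772 and 0.342 in knockdown libraries. Sham did not overlap either MCAO group, and the difference of mean log2 ratios was 2.50 for control oligo and 2.62 for knockdown (two-sided exact permutation p = 0.1 each, the smallest allowed, 0.3 adjusted). With a pseudocount of 1 on both genes the first difference was -0.10, since most Mlkl values lie below 1 TPM. For Ripk3 over Ripk1, with 0.1 TPM added to both because of zeros, the difference was 1.33 in control oligo against sham (exact p = 0.4) and 1.59 in knockdown against sham (exact p = 0.1, adjusted 0.3).

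Tnfaip3 (ENSMUSG00000019850, chromosome 10, 19000910 to 19015657, minus strand), a ubiquitin-editing enzyme that restrains NF-kB and necroptosis and is itself an NF-kB target gene, was not called in any comparison. It stood at 2.58, 2.16 and 1.79 TPM in sham, at 5.24, 2.58 and 2.95 in control oligo and at 3.46, 2.68 and 29.8 in knockdown libraries. Control oligo replicate 2 was level with the highest sham library at 2.58 TPM, and knockdown replicate 4 was 5.68 times the highest of the other MCAO libraries. The log2 change in control oligo against sham was 0.50 ± 0.24 (adjusted p 0.0985), 0.01 after median-ratio scaling and -0.11 when TPM was taken over nuclear protein-coding genes. Without control oligo replicate 2 it was 0.65 and passed (adjusted p 0.0465). In knockdown against sham it was 1.33 ± 0.72 (adjusted p 0.135), and 0.36 without knockdown replicate 4.

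Transcripts from both starts of Tnfaip3 were high in knockdown replicate 4. ENSMUST00000019997, which begins at the first start (19015410), stood at 11.8 TPM there and at 1.24 to 2.60 in the other MCAO libraries. ENSMUST00000105527, which begins at the second start (19011963), whose region held none of the motifs searched, stood at 13.6 TPM there and at 0.0399 to 2.09 in the others. A 6199-base transcript, ENSMUST00000154590, stood at 4.27 TPM there and at 0.0130 to 0.378 in the others. The ratio of Tnfaip3 TPM to Ripk1 TPM overlapped between all groups. It was 0.893 to 1.38 in sham, 0.576 to 1.14 in control oligo and 0.790 to 2.07 in knockdown libraries, with exact permutation p-values from 0.3 to 0.8 in the 3 comparisons.

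In knockdown against control oligo, none of the 8 genes tested was called (limma, adjusted p 1 for each), and 0.00585% of all genes were called higher and 0.00585% lower (0.0117% and 0.00585% after scaling). At an unadjusted p under 0.05 there was 1 gene of the 8, against 321 of 17080 genes. It was Tnfrsf12a, at 44.1 ± 5.57 TPM in knockdown and 32.8 ± 3.24 in control oligo (SD, n = 3), with a log2 change of 0.41, a 95% confidence interval from 0.04 to 0.79 and an unadjusted limma p of 0.0355. It was also the 1 gene of the 8 whose groups did not overlap, as 5.4% of the genes kept did not. Its log2 change was 0.36 after scaling and 0.48 without knockdown replicate 4.

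The other 7 genes had positive log2 changes in knockdown against control oligo, from 0.06 for Tnfrsf10b to 0.84 for Tnfaip3, with intervals that held 0. The widest interval was that of Tnfrsf1b, from -1.88 to 3.03, and the narrowest that of Tnfrsf10b, from -0.53 to 0.65. Without knockdown replicate 4 all 7 had negative log2 changes, namely Tnf -0.59, Tnfrsf1a -0.21, Tnfrsf1b -0.70, Fas -0.33, Tnfrsf10b -0.13, Ripk1 -0.41 and Tnfaip3 -0.14, with adjusted p-values of 0.776 to 0.919. Of these, Tnf was at an unadjusted limma p of 0.0178, in a fit where 960 of 17080 genes were under 0.05. The sign also turned without control oligo replicate 2 for Tnfrsf1a (-0.05), Fas (-0.10) and Tnfrsf10b (-0.06), without control oligo replicate 1 for Tnfrsf10b (-0.02) and without control oligo replicate 3 for Ripk1 (-0.15).

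**Figure D4:**
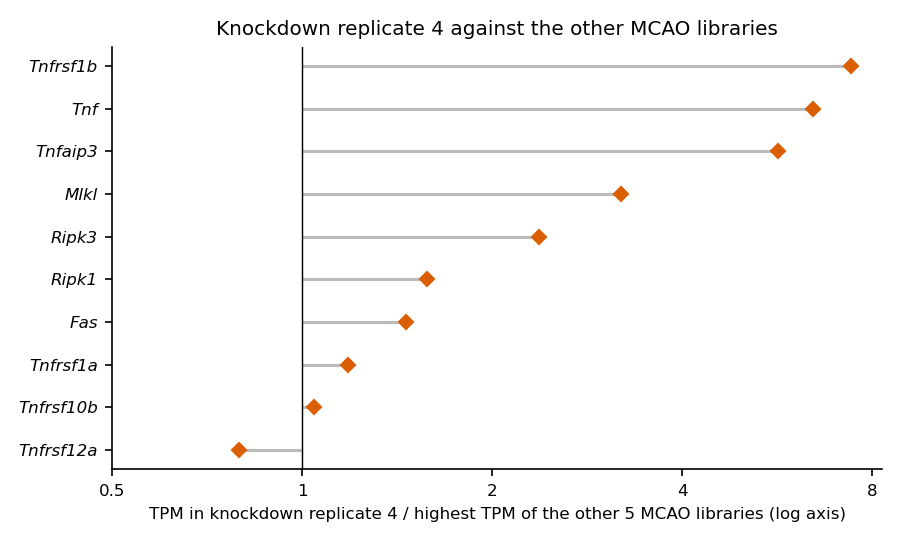
TPM of each gene in knockdown replicate 4 divided by the highest TPM of the other 5 MCAO libraries, on a log axis, with a line at 1. The ratio is 7.42 for Tnfrsf1b, 6.45 for Tnf and 5.68 for Tnfaip3, and 0.793 for Tnfrsf12a.

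In knockdown against sham, 5 of the 8 genes tested were called higher, namely Tnf, Tnfrsf1a, Tnfrsf12a, Fas and Tnfrsf10b, and none lower, where 52.7% of all genes were called higher and 12.5% lower. After scaling 4 were called higher, without Tnf, against 22.7% of all genes higher and 27.1% lower. Without knockdown replicate 4 there were 6, with Tnfrsf1b added, against 57.5% of all genes higher. All 8 genes had groups that did not overlap, as had 72.1% of the genes kept. For Tnf and Tnfrsf10b, which passed the filter through MCAO libraries alone, the calls and the separation were largely set by the filter. This comparison shares the sham libraries with the first, so the genes called in both are not separate evidence.

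The order of the levels changed from sham to MCAO. In sham, Tnfrsf12a led at 3.81 TPM, followed by Tnfrsf1a, Tnfaip3, Ripk1, Tnfrsf1b and Fas (1.03 TPM), each overlapping its neighbour. Tnfrsf10b (0.273) lay apart below Fas and above Ripk3, and Mlkl and Tnf (0.0438) came last. In control oligo, Tnfrsf1a (40.3) and Tnfrsf12a (32.8) overlapped and lay apart above Fas (12.5). Fas lay apart above Tnfrsf1b (5.54) and Tnfaip3 (3.59), while Ripk1 (5.37), which comes between these, overlapped Fas with 1 library at 9.10 TPM. Tnf (2.27) lay apart below Tnfaip3 and above Tnfrsf10b (1.26), Ripk3 (1.07) and Mlkl (0.921). In knockdown, Tnfrsf1a (45.2) and Tnfrsf12a (44.1) again led, and all neighbours in the order overlapped. Without knockdown replicate 4 Tnfrsf12a (46.2) stood above Tnfrsf1a (32.9).

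Other genes of the pathway were taken from 7 lists. Their counts in control oligo against sham stand beside 52.6% of all genes called higher and 12.8% lower. After scaling those shares were 26.1% and 29.2%. Of 17 other TNF superfamily ligands, 5 were kept, and 2 were called higher and none lower in control oligo against sham, or 2 and 1 after scaling. The lower one was Tnfsf10, which encodes TRAIL, the ligand of the Tnfrsf10b receptor, named here after its values were seen. It stood at 1.71, 2.79 and 0.469 TPM in sham and at 0.755, 0.425 and 0.452 in control oligo, with a log2 change of -0.69 (adjusted p 0.0879), or -1.01 after scaling (adjusted p 0.0402). Tnfsf9, the ligand of the T cell receptor 4-1BB, stood at 0.112 to 0.296 TPM in sham, 2.26 to 3.01 in control oligo and 1.38 to 7.16 in knockdown libraries. Tnfsf9 passed the filter through MCAO libraries alone, so its call of higher was largely set by the filter. Tnfsf12, which encodes TWEAK, the ligand of the Tnfrsf12a receptor, rose from 1.64 to 1.93 TPM in sham to 7.34 to 9.20 in control oligo (log2 change 1.71, adjusted p 6.84e-05) and stood at 9.90 to 12.2 in knockdown libraries. Tnfsf12 in knockdown lay above control oligo in all 3 libraries without being called (log2 change 0.41, adjusted p 1). In that comparison 5.4% of the genes kept had groups that did not overlap. Tnfsf13b, a B cell survival factor, was at 0.301 to 0.994 TPM in sham and 0.905 to 2.53 in control oligo (adjusted p 0.0508).

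Of 23 other receptors of the superfamily, 13 were kept, and 8 were called higher and none lower, or 5 and 1 after scaling. Ltbr, the lymphotoxin beta receptor, rose from 2.52 to 2.89 TPM in sham to 9.88 to 12.2 in control oligo (log2 change 1.66). Relt rose from 4.75 to 8.06 to 15.3 to 19.9 TPM (log2 change 1.41), and Tnfrsf4, a co-stimulatory receptor of T cells, from 0 to 0.253 to 1.01 to 2.02 TPM (log2 change 1.13). Tnfrsf4 passed the filter through MCAO libraries alone, so its call of higher was largely set by the filter. The median log2 change of the list was 0.59, beside 0.56 over all genes.

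The 24 genes of receptor complex adaptors and ubiquitin enzymes were all kept, with 13 called higher and 1 lower, or 6 and 4 after scaling. Their median log2 change was 0.67 and 0.12 after scaling, near those of all genes. Map3k14, the kinase of the non-canonical NF-kB pathway, rose from 0.984 to 2.05 TPM in sham to 5.08 to 12.8 in control oligo (log2 change 1.99). Rnf31, the catalytic subunit of the linear ubiquitin ligase, rose by 1.52 and Xiap, an inhibitor of caspases, by 1.06 on the log2 scale. Xiap was at 14.9 to 19.1 TPM in control oligo, at 16.8 in both knockdown replicates 2 and 3 and at 4.38 in knockdown replicate 4.

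Of 17 further brakes on TNF signalling, 16 were kept, and 9 were called higher and 1 lower, or 7 and 5 after scaling. The share called higher was near the 52.6% of all genes as deposited. Zfp36, which binds and destabilises Tnf mRNA, rose from 0.454 to 0.646 TPM in sham to 6.98 to 23.9 in control oligo (log2 change 3.25, adjusted p 0.00013), with 9.77, 6.06 and 37.9 in the knockdown libraries. Zfp36 too passed the filter through MCAO libraries alone. Otulin, which removes linear ubiquitin chains, rose by 1.35 and Tnip1, a partner of the Tnfaip3 protein, by 1.12 on the log2 scale. Of the 13 genes of the caspase-8 arm, 12 were kept, and 10 were called higher and none lower, or 4 and none after scaling. Casp6 rose by 1.68 and Bid by 1.54 on the log2 scale and both were called after scaling, whereas Cycs, the gene of cytochrome c, rose by 0.78 and was not called after scaling (0.12, adjusted p 0.357).

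Of 16 necroptosis inputs and modifiers, 15 were kept, and 11 were called higher and none lower, or 8 and 1 after scaling. Their median log2 change was 1.22 and 0.75 after scaling, beside 0.56 and 0.01 over all genes. The 3 with the smallest p were not triggers of the pathway. Chmp4b and Chmp2a, subunits of the ESCRT-III complex that repairs and sheds damaged membrane, rose by 1.93 and 1.55 on the log2 scale, and Stub1, a ubiquitin ligase, by 1.75. Chmp4b stood at 63.9 to 86.3 TPM in sham, 262 to 295 in control oligo and 270 to 298 in knockdown libraries. Among 7 genes of TNF and receptor processing, 4 were called higher and none lower, or 4 and 3 after scaling. Timp3, an inhibitor of the TNF-shedding protease ADAM17, rose by 1.60, Litaf by 1.97 and Rhbdf1 by 1.40 on the log2 scale. In knockdown against control oligo no gene of the 7 lists was called.

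**Figure D5:**
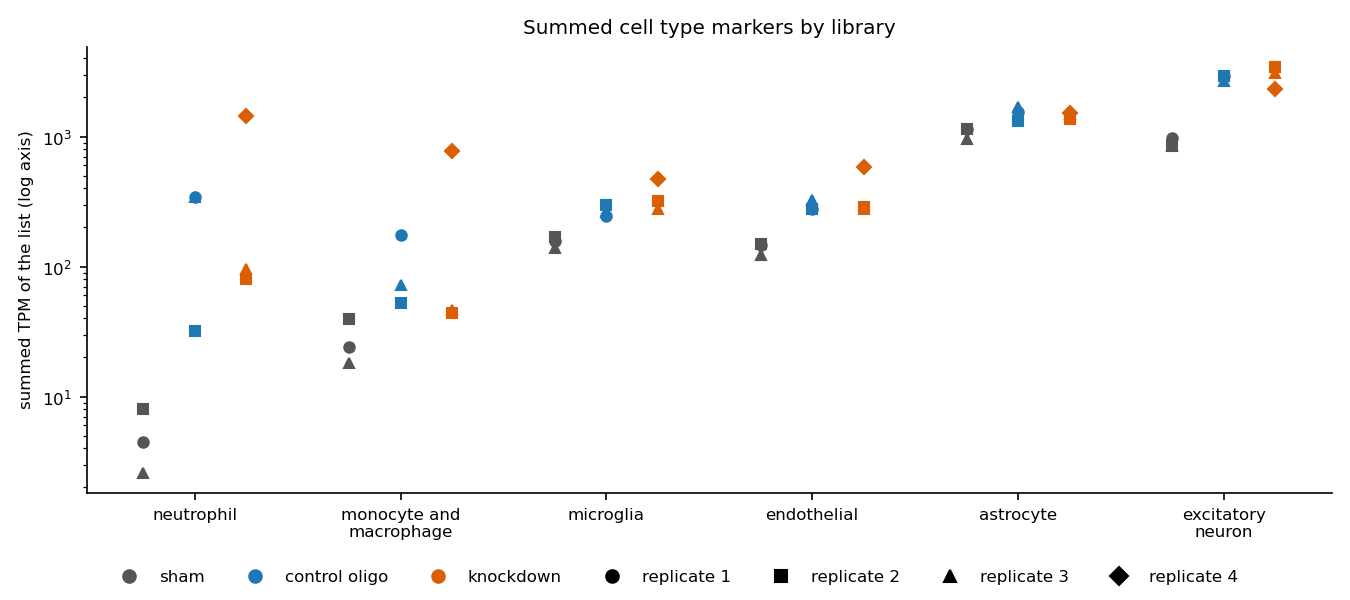
Summed TPM of 6 lists of cell type markers in each library, on a log axis, with colour for the group and shape for the replicate. Knockdown replicate 4 is at 1434 TPM for neutrophil markers and 777 for monocyte and macrophage markers, and it is the lowest MCAO library for excitatory neuron markers, at 2304.

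Markers of cell types also differed between libraries, and their part in the results was not tested. Counts of markers called in control oligo against sham stand beside 52.6% of all genes higher and 12.8% lower (26.1% and 29.2% after scaling). In control oligo against sham all 7 neutrophil markers kept of 12 were called higher, and 6 after scaling. The 12 markers summed to only 2.59 to 7.99 TPM in sham, so those near 0 there could pass the filter through MCAO libraries alone. For these a call of higher was largely set by the filter. S100a8, a calcium-binding protein of neutrophils, stood at 0.538 to 1.64 TPM in sham, at 109, 10.3 and 118 in control oligo and at 23.7, 26.5 and 480 in knockdown libraries. S100a9, its partner, rose by 4.67 on the log2 scale. Ly6g, Mpo, Elane, Camp and Retnlg were listed at 0 in all sham libraries, and Retnlg stood at 2.42 to 33.3 TPM in control oligo. Control oligo replicate 2 had the lowest neutrophil sum of its group, at 32.2 TPM against 340.3 and 345. It also had the lowest Tnf, Tnfrsf1a, Tnfrsf1b, Fas, Tnfrsf10b, Mlkl and Tnfaip3. However, it had the highest Tnfrsf12a, and Ripk1 was lowest in replicate 3 and Ripk3 in replicate 1. Knockdown replicates 2 and 3 had larger neutrophil sums than this library, at 80.6 and 95.3 TPM. Both had lower Tnf, Tnfrsf1b, Ripk1 and Ripk3 than it, and higher Tnfrsf1a, Tnfrsf12a, Fas, Tnfrsf10b and Tnfaip3. Mlkl lay on either side.

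Monocyte and macrophage markers kept 8 of 10 genes, with 5 called higher and none lower in control oligo against sham, or 2 and 1 after scaling. Lyz2, the lysozyme of myeloid cells, stood at 4.43 to 10.9 TPM in sham, at 108, 18.7 and 31.6 in control oligo and at 20.9, 21.3 and 521 in knockdown libraries. Cd163 and Fn1 rose by 0.94 and 1.11 on the log2 scale and missed the threshold after scaling. All 10 markers of the list were highest in knockdown replicate 4 of the 6 MCAO libraries. Of 10 lymphocyte markers none was kept, 7 were listed at 0 in all sham libraries, and their sum was 1.36 to 3.90 TPM in MCAO libraries and 0.293 to 0.583 in sham.

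Microglia markers summed to 138 to 168 TPM in sham, to 245 to 298 in control oligo, to 279 and 317 in knockdown replicates 3 and 2 and to 472 in replicate 4, with 7 of 10 called higher and 1 lower in control oligo against sham (4 and 2 after scaling). Sall1 rose by 1.16 and Cx3cr1 by 1.27 on the log2 scale. Endothelial markers summed to 122 to 149, to 277 to 323, to 279 and 288 and to 586 TPM, with 7 of 10 higher and 2 lower (4 and 3 after scaling). Cdh5 rose by 2.53, Ly6c1 by 1.97 and Esam by 1.73 on the log2 scale. Markers were named for their small p, and the lower ones of these lists are counted but not named. The named markers therefore do not speak for their lists. All 10 endothelial markers and 6 of 10 microglia markers were highest in knockdown replicate 4 of the MCAO libraries. Of the 10 genes described here, 9 were highest there. The share of all genes kept that were highest there was not computed, so these counts have no background.

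Markers of the remaining types split between higher and lower after scaling, where 26.1% of all genes were called higher and 29.2% lower. The markers named below all rose as deposited, and the lower ones are counted but not named. In control oligo against sham, pericyte and smooth muscle markers had 5 of 9 called higher and none lower (2 and 3 after scaling), among them Kcnj8 (1.26), Tagln (1.41) and Vtn (0.83 on the log2 scale). Meningeal and fibroblast markers had 5 of 10 and none (3 and 3), with Dcn at 1.83, Col3a1 at 1.18 and Ptgds at 1.69. Astrocyte markers had 5 of 10 higher and 1 lower (2 and 4), with Aldh1l1 at 0.97, Aldoc at 1.22 and Sox9 at 1.54. Oligodendrocyte markers had 7 of 10 and 1 (1 and 2), with Mog at 1.35, Mobp at 1.19 and Opalin at 1.13. Excitatory neuron markers had 5 of 10 and 3 (4 and 4), with Camk2a at 1.82, Tbr1 at 1.25 and Nrgn at 2.37. In knockdown replicate 4 the astrocyte, oligodendrocyte, excitatory neuron and meningeal sums were 0.898, 0.867, 0.675 and 0.772 times the highest other MCAO library. The pericyte sum was 1.36 times it, and only the excitatory neuron sum lay below every other MCAO library. By single markers, 5 of 10 astrocyte, 1 of 10 oligodendrocyte and 0 of 10 excitatory neuron markers were highest there. So were 7 of 9 pericyte and 7 of 10 meningeal markers. No marker of any list was called in knockdown against control oligo.

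Pairs of the 10 genes across the 6 MCAO libraries are given with and without Tnfrsf12a, a split made after seeing the values. Pearson's r of log2(TPM + 1) describes 6 libraries that share their preparation and of which 1 stands apart. It was 0.26 to 0.99 (median 0.87) over the 36 pairs without Tnfrsf12a, but without knockdown replicate 4 it was -0.73 to 0.94 (median 0.55) and below 0 for 8 of them, such as Ripk1 with Ripk3 (0.46 with that library, -0.73 without it). Over the 9 pairs with Tnfrsf12a it was -0.24 to 0.08 (median -0.09), and -0.81 to -0.24 (median -0.43) without that library. Of 13598 nuclear protein-coding genes, the 3 most like Tnf were Vwf (r = 0.996), Msn (0.996) and Pla2g4a (0.995), with r of 0.981, 0.948 and 0.940 without knockdown replicate 4. The 3 most like Tnfaip3 were Arg1 (0.999), Pygl (0.998) and Ltbr (0.998). Arg1, arginase, stood at 0.221 to 3.64 TPM in 5 MCAO libraries and at 167 in knockdown replicate 4, and over those 5 libraries its r with Tnfaip3 was 0.986. Tnfrsf1a was most like Mndal (0.995), Adora3 (0.991) and Rac1 (0.991). These values hold the 250-base transcript of control oligo replicate 1: without transcripts under 300 bases r was 0.812, 0.835 and 0.763. Tnfrsf12a was most like Carf (0.980), Rfc4 (0.978) and 2810004N23Rik (0.977). Like Tnfrsf12a, Carf and Rfc4 were higher in each knockdown library than in any control oligo library, whereas 2810004N23Rik overlapped. Of the genes kept, 5.4% had groups that did not overlap. Carf and Rfc4 were picked for likeness to Tnfrsf12a over the same 6 libraries, so their separation is not separate evidence.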

How the data were processed

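RNA sequencing of mouse cortex was analysed in 9 libraries, 3 per group. The MCAO libraries are stranded poly(A) libraries, per the labels' protocols, and the preparation of the sham libraries is not given in the sources used here. The authors aligned reads with HISAT2 2.0 to GRCm38 (mm10) and estimated transcripts with StringTie 1.3, per the submitters' processing notes. Per the file headers, StringTie 1.3.4d was run on a merged annotation with no strand option and wrote TPM, FPKM and coverage per transcript.

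From these, transcript TPM was summed per gene, and aligned bases were taken as coverage times length (per library, from coverage over FPKM). Genes at a TPM of at least 1 in at least 3 libraries were kept, 17080 of 52550. Limma 3.58.1 (R 4.3.3) with a trend was fitted to log2(TPM + 1) of the 6 libraries of each comparison. P-values were adjusted by Benjamini-Hochberg over all genes kept, with a threshold of 0.05. The fit was tested on simulated normal noise with the same spread in both groups and no library apart. That test therefore does not cover data such as knockdown replicate 4. Ratios within a library were compared by exact permutation tests. Python 3.11.15, pandas 2.3.3, numpy 2.4.6 and matplotlib 3.10.9 were used. The labels give 3 mice per group without tying a library to a mouse, so p-values measure the spread between these samples. TPM keeps no read counts, so precision was taken from replicates.

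Alternatives were FPKM, a pseudocount of 0.1, no filter, median-ratio scaling, TPM over nuclear protein-coding genes, a fit over all 9 libraries, a replicate block and leaving out each library. The members and lists were chosen with earlier results of these data known. Named beside the members were the 3 genes of each list with the smallest p in control oligo against sham, the 3 genes most like Tnf, Tnfrsf1a, Tnfrsf12a and Tnfaip3, and transcripts holding at least 10% of a member's TPM in a group where the results turn on them. A gene that this rule names is not reported here. The eRNA was not analysed here.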

Additional observations from a re-analysis of the deposited data

How the results depend on the processing

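Under the alternatives, 6 genes called in control oligo against sham became 5 to 7, and none was called in knockdown against control oligo under any (0 in each). In knockdown against sham, 5 became 3 with no filter on low values and 3 with TPM over nuclear protein-coding genes, and 4 to 6 elsewhere, and leaving out a library gave 6 to 7, 0 and 4 to 6 in the 3 comparisons. With TPM over nuclear protein-coding genes, Tnfaip3 in control oligo against sham turned to -0.11. Tnf in knockdown against sham missed the threshold under 8 alternatives (adjusted p 0.0538 to 0.251), and Tnfrsf10b in control oligo against sham did so with no filter (0.0729), median-ratio scaling (0.0517) and nuclear protein-coding TPM (0.0528). With a pseudocount of 1, the log2 ratios in control oligo against sham were -0.051 for Ripk3 to Ripk1 and -0.10 for Mlkl to Ripk1. The causes were not tested.

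Leaving out libraries one at a time changed the sign in knockdown against control oligo. The log2 changes ranged from -0.59 to 0.97 for Tnf, -0.21 to 0.44 for Tnfrsf1a, -0.70 to 1.26 for Tnfrsf1b, -0.33 to 0.35 for Fas, -0.13 to 0.26 for Tnfrsf10b, -0.41 to 0.59 for Ripk1 and -0.14 to 1.40 for Tnfaip3. The log2 ratios ranged from -1.02 to 0.65 for Tnfrsf1a to Tnfrsf1b, -0.74 to 1.17 for Ripk3 to Ripk1 and -0.34 to 0.75 for Mlkl to Ripk1, and in knockdown against sham from -0.22 to 0.48 for Tnfaip3 to Ripk1. Deviations of same-numbered samples correlated at -0.071 to 0.231, and those of differently numbered samples at -0.24 to 0.287. No label says what the number marks, and these values cannot show whether an animal, litter or batch was shared. With the replicate block, over the libraries whose number both groups hold, 7, 0 and 6 genes were called in the 3 comparisons, and in knockdown against control oligo, where the block leaves out knockdown replicate 4, Tnf was at -0.56, Tnfrsf1b at -0.50, Fas at -0.091, Tnfrsf10b at -0.21 and Ripk1 at -0.0094.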
